A study of Mus musculus with 2 samples.

Results

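T cells of the dura, the tough outermost layer of the meninges, were examined in mice at postnatal day 14. They are the cells that the authors named Tcells in their deposited metadata of 1 lymphoid cluster. That name covers 62 of the 477 cells named there and of 12544 annotated cells in all. The other 3 names are gdTcells (gamma-delta T cells), NK (natural killer cells) and ILC2s (group 2 innate lymphoid cells). Of the Tcells, 32 came from the KO library, whose mice carry the Il33 H2B-mCherry allele on both chromosomes, and 30 came from the het library, whose mice carry 1 copy of that allele beside 1 intact Il33. Both genotypes therefore carry the tagged allele, and no wild-type library was used here. Tissue of several mice of both sexes was pooled per library, and the sort added CD45+CD11b- lymphocytes and gp38+CD31- stroma to viable cells of the whole dura.

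T cells carry an antigen receptor that signals through the CD3 chains. CD4 T cells recognise peptide on MHC class II and CD8 T cells on MHC class I. Naive T cells circulate through lymphoid organs with the homing receptor CCR7. Regulatory T cells, defined by the transcription factor FOXP3, restrain immune responses, and a tissue type of them bears ST2, the IL-33 receptor chain encoded by Il1rl1.

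The design holds 1 library per genotype, so replicates are lacking and neither tests nor p-values could be given. Levels are counts of unique molecular identifiers (UMIs) summed over the Tcells of a library, scaled to 1000000 UMIs of those cells (CPM). Intervals are exact 95% intervals that cover counting error only, and they leave out the spread between mice, pools and preparations. Those of level ratios take each UMI as an independent draw. They therefore also leave out the spread between cells and are too narrow where a few cells hold most UMIs. In summed counts, fewer cells of a type and less RNA per cell cannot be told apart, so the number of cells with a UMI is given beside the level.

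The KO Tcells held 247672 UMIs and the het Tcells 277946, with medians of 7469 and 7655 UMIs per cell. The depth ran from 1780 to 16216 UMIs per KO cell and from 4566 to 25889 per het cell. Ribosomal protein genes took 36.2% of the UMIs of KO Tcells and 28.5% of those of het Tcells. For the gdTcells these shares were 26.1% in KO and 26.8% in het. The libraries shared 36 barcodes in all and 0 among the named cells. Il33, the targeted gene, had 0 UMIs in the Tcells of both libraries. In annotated cells outside the lymphoid cluster it stood at 9.93 CPM in KO and 44.6 CPM in het. The part of these differences in depth and RNA makeup in the results was not tested.

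The share of Tcells was close in the 2 libraries. They made up 12.6% of the named cells of the KO library (32 of 253, interval 8.81 to 17.4%) and 13.4% of those of the het library (30 of 224, interval 9.22 to 18.6%). The KO/het ratio of these shares was 0.944, with an interval of 0.556 to 1.61. That interval spans changes of more than 1.5-fold in either direction, so a difference of that size was not detectable with these cells. Of all annotated cells the share was 0.485% in KO and 0.504% in het. The sort can set such shares.

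The label was checked against the CD3 chains. Cd3e (ENSMUSG00000032093, chromosome 9, 44998740 to 45009627, minus strand, GRCm38) had a UMI in 30 of 32 KO Tcells and 26 of 30 het Tcells, at 375 CPM in KO and 317 CPM in het. Cd3d (ENSMUSG00000032094) stood at 1244 CPM in KO and 1029 CPM in het, and Cd3g at 1377 CPM in KO and 1184 CPM in het. At least 2 of these 3 chains were seen in 31 of 32 KO Tcells and in 30 of 30 het Tcells. The 1 exception is the shallowest cell, a KO cell of 1780 UMIs with no CD3 UMI and 3 Il1rl1 UMIs. Cd3e in the gdTcells stood at 491 CPM in KO and 472 CPM in het, so the CD3 chains do not part these names. In NK cells it stood at 37.3 CPM in KO and 41.8 CPM in het, with a UMI in 6 of 54 KO and 6 of 52 het cells. In ILC2s it had 0 UMIs in 65 KO cells and stood at 10.6 CPM in het.

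Several defining markers of other lymphocytes had no UMI in the Tcells, while others of the same lists did. Sox13, a transcription factor of gamma-delta T cells, had 0 UMIs in both libraries. Il17a and Il23r of the type 17 program had 0 UMIs, but its list summed to 4.04 CPM in KO and 39.6 CPM in het. Ccr6 of that list had a UMI in 0 KO and 4 het cells. Ncr1 and Gzma of NK cells had 0 UMIs, as had Il5 of ILC2s. Rag1, Dntt and Ptcra, which mark developing thymocytes, also had 0 UMIs. The NK list summed to 101 CPM in KO and 270 CPM in het, with Gzmb at 28.3 CPM in KO and 209 CPM in het. The ILC2 list summed to 133 CPM in KO and 450 CPM in het, most of it Gata3 and Il1rl1, which are described below. Of the thymocyte list, Sox4 stood at 101 CPM in KO and 64.8 CPM in het, and Tcf12 at 76.7 CPM in KO and 61.2 CPM in het. The part of such markers in the results was not tested. B cell markers summed to 44.4 CPM in KO and 28.8 CPM in het. The constant and variable chains of the T cell receptor were not analysed here.

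The genes that led the Tcells over the other 3 names included Dapl1, Lef1, Ccr7, S1pr1 and Foxp3. Since the names come from clustering these same cells, this is a description with no test. With 5 CPM added, 64 of 3257 genes (1.96%) stood at least 2-fold above the highest of the other names in both libraries. Dapl1, a gene of naive lymphocytes, led them at 206 CPM in KO and 93.5 CPM in het. Its highest level in another name was 6.49 CPM, in KO NK cells. Lef1, a transcription factor of naive T cells, stood at 371 CPM in KO Tcells and 245 CPM in het Tcells. In all other names and libraries it lay between 23.2 and 36.2 CPM. S1pr1, the receptor that lets lymphocytes leave lymphoid organs, stood at 339 CPM in KO and 299 CPM in het. Slamf6, a surface receptor of lymphocytes, stood at 287 CPM in KO and 227 CPM in het. Izumo1r, which encodes folate receptor 4, stood at 133 CPM in both libraries. Cd6, a co-receptor of T cells, stood at 76.7 CPM in KO and 68.4 CPM in het. Ifi27l2a, an interferon-induced gene, stood at 868 CPM in KO and 1054 CPM in het, with at most 63.8 CPM in another name. Slfn1, Nrn1, Fam169b and Nsg2 completed the first 15 with Ccr7, Cd8b1, Tnfrsf4 and Foxp3, which are described below.

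**Figure D1:**
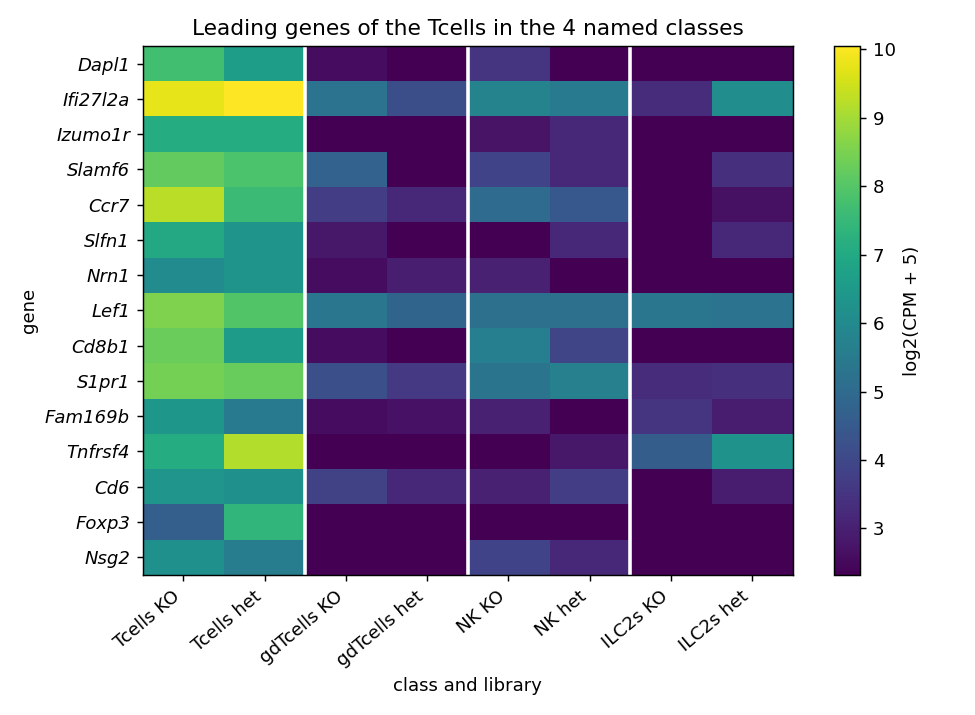
Heat map of the 15 leading genes (rows) in the 4 named classes (columns, KO left of het in each), coloured by log2 of CPM plus 5. Dapl1, Lef1 and S1pr1 are bright in both Tcells columns, whereas Foxp3 is brighter in het Tcells (166 CPM) than in KO Tcells (20.2 CPM) and is at 0 in all other columns.

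Of the 3257 genes with at least 20 UMIs over both libraries, 270 (8.29%) were at least 1.5-fold higher in KO Tcells and 770 (23.6%) at least 1.5-fold lower. With every ratio scaled so that their median log2 is 0, the split was 446 higher and 545 lower. Counts of list genes past 1.5-fold below are to be read against the 8.29% and 23.6%. The median log2 KO/het ratio of all these genes was -0.17, and list medians below are to be read against that value. The same median was 0.01 in gdTcells and 0.01 in NK cells. The counting interval also excluded 1 for 85 of the higher genes (2.61% of those tested) and 381 of the lower genes (11.7%).

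The receptor and signaling machinery of T cells stood within 1.5-fold. None of 4 measured CD3 and zeta chain genes was past that fold, and their median log2 ratio was 0.23. Of 14 signaling genes, only Themis, a thymocyte selection gene, was past it. Themis had 17 UMIs in KO Tcells and 10 in het Tcells, and the interval of its ratio, 0.825 to 4.66, includes 1. Lck, the kinase that starts receptor signaling, stood at 351 CPM in KO and 284 CPM in het. Cd28, the costimulatory receptor, stood at 464 CPM in KO and 385 CPM in het. For both the interval of the ratio includes 1.

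Genes of the CD8 lineage were higher in KO Tcells, and more KO cells carried them. Cd8b1 (ENSMUSG00000053044, chromosome 6, 71322788 to 71337494), the CD8 beta chain, stood at 307 CPM in KO and 89.9 CPM in het, with a UMI in 11 of 32 KO cells and 5 of 30 het cells. The KO/het ratio was 3.41, with an interval of 2.15 to 5.596, and on the log2 scale it was 1.77 in summed UMIs and 0.92 as a mean over cells. Cd8a, the alpha chain, had 30 UMIs over 9 KO cells and 5 UMIs in 1 het cell. Runx3, a transcription factor of CD8 T cells, stood at 84.8 CPM in KO and 50.4 CPM in het, and its interval of 0.816 to 3.58 includes 1. Cd8a or Cd8b1 was seen in 34.4% of KO Tcells (interval 18.6 to 53.2%) and 16.7% of het Tcells (interval 5.64 to 34.7%). The intervals of these shares of cells overlap. In the gdTcells Cd8b1 had a UMI in 1 of 102 KO cells and 0 of 76 het cells. NK cells had the same direction as the Tcells, with Cd8b1 at 45.5 CPM in KO and 10.5 CPM in het. Over the other 3 names together, 3 KO and 2 het cells held a Cd8b1 UMI.

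Cd4 differed less. It had a UMI in 13 of 32 KO cells and 13 of 30 het cells, at 88.8 CPM in KO and 75.6 CPM in het. Cd4 without a CD8 chain was seen in 12 KO and 11 het cells, and both kinds of co-receptor in 1 KO and 2 het cells. Neither was seen in 9 KO and 14 het cells. Cd4 had a UMI in 5 of 54 KO and 4 of 52 het NK cells, and its transcript is sparse here, so absence of a UMI does not show that a cell lacks CD4. Cd40lg, the helper ligand CD40L, stood at 32.3 CPM in KO and 64.8 CPM in het. Tox, a transcription factor of CD4 T cell development, stood at 40.4 CPM in KO and 79.2 CPM in het. For both the interval includes 1.

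Naive and recirculating T cell genes leaned higher in KO Tcells. Of 14 fixed genes 13 were measured. Of these 5 were at least 1.5-fold higher (8.29% over all genes) and 0 lower, with a median log2 ratio of 0.48. The same list had medians of 0.64 in gdTcells, 0.10 in NK cells and -0.07 in ILC2s, so the lean was not particular to the Tcells. Ccr7 (ENSMUSG00000037944, chromosome 11, 99144196 to 99155077, minus strand) stood at 602 CPM in KO and 187 CPM in het. Its ratio was 3.22, with an interval of 2.33 to 4.50. Ccr7 had a UMI in 22 of 32 KO cells (68.8%, interval 49.99 to 83.9%) and 13 of 30 het cells (43.3%, interval 25.5 to 62.6%). At an equal depth of 4000 UMIs these shares would be 64.7% in KO and 37.2% in het, with 2 shallower KO cells left out. Among cells that carried it, the median was 6.5 UMIs in KO and 5 UMIs in het. In gdTcells Ccr7 had a UMI in 5.88% of KO and 2.63% of het cells.

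Bach2, a repressor that keeps T cells quiescent, stood at 80.8 CPM in KO and 25.2 CPM in het (ratio 3.21, interval 1.30 to 8.97). Dapl1 had a UMI in 8 KO and 6 het cells (ratio 2.20, interval 1.35 to 3.68), and 19 of its 51 KO UMIs lay in 1 cell. Igfbp4 stood at 210 CPM in KO and 108 CPM in het, and the ratio of Lef1 was 1.52. Il7r, the IL-7 receptor chain, stood at 485 CPM in KO and 489 CPM in het. In cells with an Xist UMI the median of the list was 0.05, and in cells without one it was 1.05.

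Bcl2, the survival factor of naive T cells, stood at 436 CPM in KO and 191 CPM in het, with a UMI in 23 KO and 13 het cells (ratio 2.29, interval 1.63 to 3.24). Itm2a, a membrane protein of T cells, stood at 214 CPM in KO and 75.6 CPM in het, in 18 KO and 8 het cells. Ms4a6b, a membrane protein of the MS4A family, stood at 787 CPM in KO and 446 CPM in het, in 31 KO and 26 het cells. In cells with an Xist UMI alone the log2 ratios of Bcl2 (0.23) and Ms4a6b (0.54) lay within 1.5-fold.

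**Figure D2:**
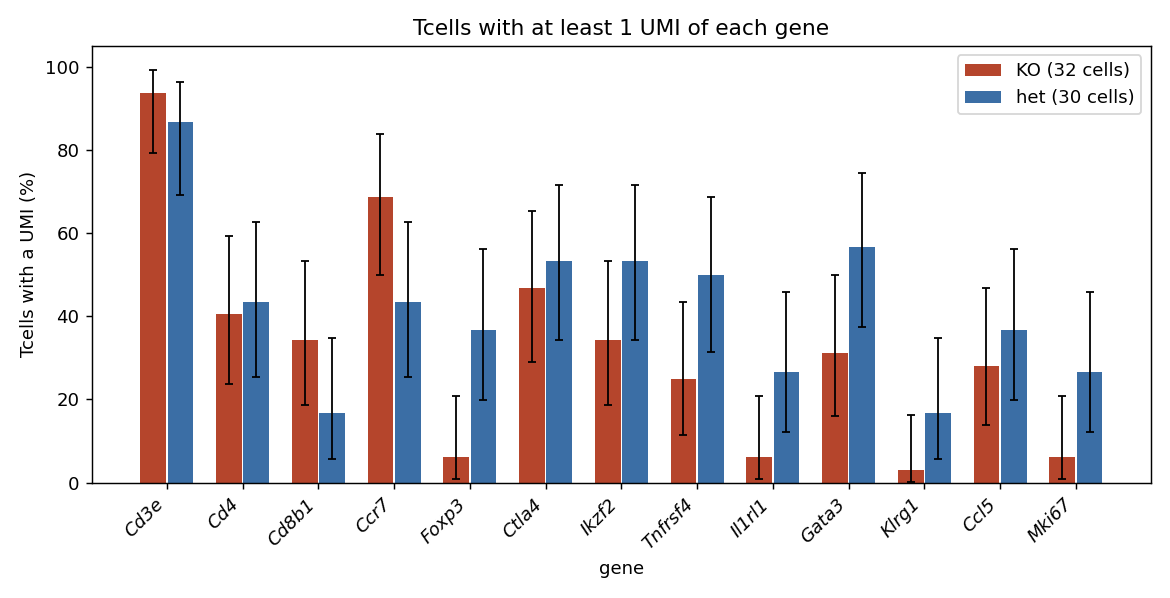
Bars give the percent of Tcells with at least 1 UMI of each gene, KO left of het, with exact 95% intervals that cover counting error only. Foxp3 stands at 6.25% in KO and 36.7% in het, whose intervals overlap only between 19.9 and 20.8%, while Cd4 stands at 40.6% in KO and 43.3% in het.

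Regulatory T cell genes were lower in KO Tcells. Of 15 fixed genes 11 were measured. Of these 9 were at least 1.5-fold lower (23.6% over all genes) and 0 higher. The median log2 ratio was -1.49 against -0.17 for all genes. Foxp3 (ENSMUSG00000039521, X chromosome, 7573644 to 7595245, plus strand) had 5 UMIs in the KO Tcells and 46 in the het Tcells, which is 20.2 CPM in KO and 166 CPM in het. The ratio was 0.122, with an interval of 0.0378 to 0.306. A Foxp3 UMI was found in 2 of 32 KO cells (6.25%, interval 0.766 to 20.8%) and in 11 of 30 het cells (36.7%, interval 19.9 to 56.1%). At an equal depth of 4000 UMIs these shares would be 5.41% in KO and 33.1% in het. The KO cells held 3 and 2 Foxp3 UMIs, whereas the het cells held 2 to 6 each. Foxp3 had no UMI in the 221 KO and 194 het cells of the other 3 names, whose median depths were 8425 and 8564 UMIs. Among all other annotated cells 1 KO and 4 het cells held a Foxp3 UMI.

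The Foxp3 cells carried further regulatory genes in both libraries. Ctla4, an inhibitory receptor, and Ikzf2, which encodes the transcription factor Helios, had a UMI in 2 of 2 KO and 11 of 11 het Foxp3 cells. Tnfrsf4, which encodes the costimulatory receptor OX40, had one in 2 KO and 10 het Foxp3 cells. Il2ra, the high-affinity IL-2 receptor chain, had one in 2 KO and 7 het Foxp3 cells. No Foxp3 cell of either library held a Cd8a or Cd8b1 UMI.

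Over all Tcells, Tnfrsf4 stood at 133 CPM in KO and 561 CPM in het (ratio 0.237, interval 0.158 to 0.347). Ikzf2 stood at 254 CPM in KO and 770 CPM in het, and Tnfrsf18, which encodes GITR, at 186 CPM in KO and 471 CPM in het. Tnfrsf9, which encodes 4-1BB, stood at 44.4 CPM in KO and 198 CPM in het. Klrg1, an inhibitory receptor of differentiated lymphocytes, had 4 UMIs in 1 KO cell and 58 in 5 het cells, 32 of them in 1 cell. All 6 of these cells held Foxp3. Ctla4 was within 1.5-fold at 238 CPM in KO and 291 CPM in het, and Izumo1r stood at 133 CPM in both. Ctla4 outside the Foxp3 cells was seen in 13 of 30 KO and 5 of 19 het cells, at 178 CPM in KO and 69.6 CPM in het.

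Il1rl1 (ENSMUSG00000026069, chromosome 1, 40429570 to 40465415), which encodes ST2, had 12 UMIs in 2 KO Tcells and 34 UMIs in 8 het Tcells. The ratio of its level, 48.5 CPM in KO and 122 CPM in het, was 0.396 with an interval of 0.187 to 0.784. The KO cells held 9 and 3 UMIs, and the cell with 3 is the one without a CD3 UMI. The het cells held 1 to 13 UMIs, 13 of them in 1 cell. Foxp3 and Il1rl1 met in 1 KO and 7 het cells. In ILC2s Il1rl1 had a UMI in 60 of 65 KO and 61 of 66 het cells, against 3 of 102 KO and 0 of 76 het gdTcells.

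Gata3 and Rora, transcription factors that tissue regulatory T cells share with type 2 lymphocytes, were also lower in KO Tcells. Gata3 stood at 64.6 CPM in KO and 255 CPM in het (ratio 0.253, interval 0.137 to 0.439), with a UMI in 10 KO and 17 het cells. Rora stood at 32.3 CPM in KO and 176 CPM in het, in 5 KO and 15 het cells. Il4, Il5 and Csf2 had 0 UMIs in both libraries, and Il13 had 0 in KO and 1 in het, so cytokines of the type 2 list were not detectable at this depth. Areg, a growth factor of tissue repair, had 5 UMIs in 1 KO cell and 15 in 4 het cells, all 4 with Foxp3.

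The libraries pooled both sexes, and the presence of an Xist UMI was used to part the cells, although its absence does not show that a cell is male. A Foxp3 UMI was seen in 1 of 15 KO and 3 of 15 het Tcells with an Xist UMI, and in 1 of 17 KO and 8 of 15 het Tcells without one. The intervals of the 2 het shares, 4.33 to 48.1% with and 26.6 to 78.7% without an Xist UMI, overlap. The list median was -0.40 in cells with an Xist UMI and -2.90 in cells without one. With all Foxp3 cells left out, 5 of the list's genes were measured and their median was -0.27. These cells were left out by a gene of the list itself, so a smaller difference is built into the choice. No conclusion is drawn from it.

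**Figure D3:**
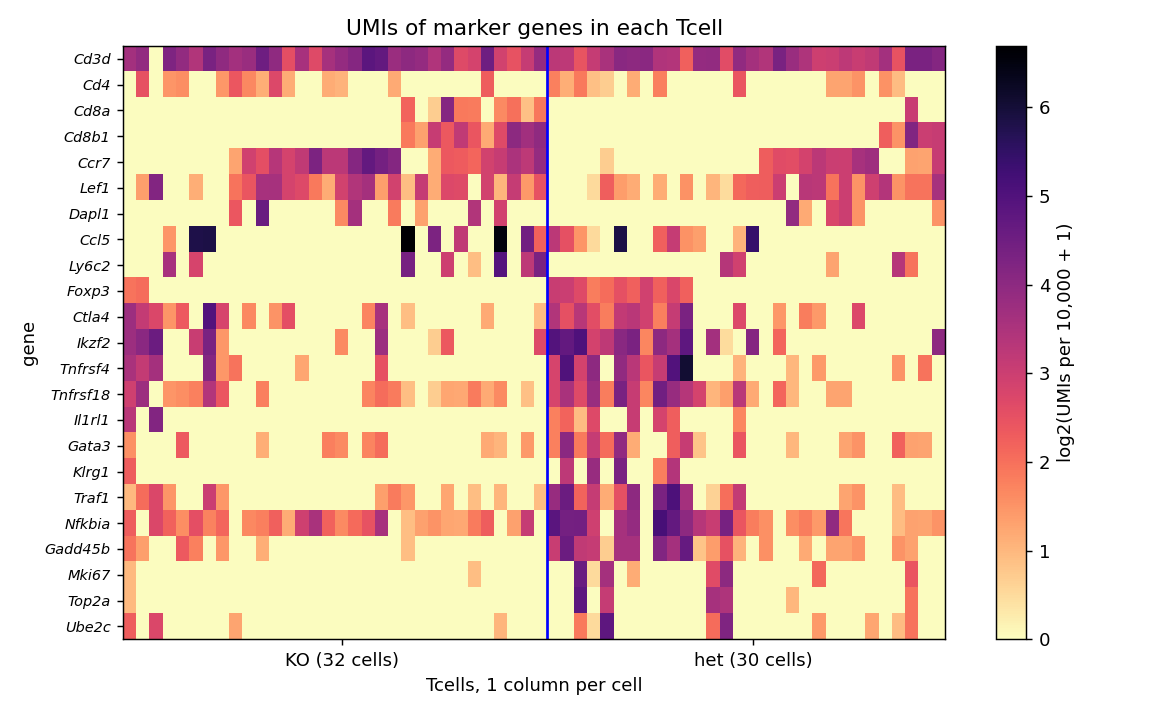
Each column is 1 Tcell, KO cells left of the blue line and het cells right of it, ordered within a library by Foxp3, then CD8 chains, then Ccr7. Colour gives log2 of UMIs per 10000 plus 1. The 2 KO and 11 het cells with Foxp3 stand at the left end of each block and also carry Ctla4 and Ikzf2, and cells with Cd8a or Cd8b1 (11 KO, 5 het) stand at the right end.

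Genes of NF-kB, the transcription factor family switched on by tumour necrosis factor receptors, IL-1 family receptors and the antigen receptor, were lower in KO Tcells. Of 16 fixed genes 13 were measured. Of these 11 were at least 1.5-fold lower (23.6% over all genes) and 0 higher, with a median log2 ratio of -1.42. The same list had medians of -0.15 in gdTcells, -0.27 in NK cells and -0.50 in ILC2s. With 1 library per genotype the difference between the names was not tested. The promoter of the inhibitor Nfkbia is well known to answer NF-kB, and its sequence is shown because the gene is among those that were lower. The 250 bases before its RefSeq start (GRCm38.p6, chr12:55492648-55492897, minus strand) are written 5′ to 3′ with the NF-kB consensus match in capitals.
Nfkbia: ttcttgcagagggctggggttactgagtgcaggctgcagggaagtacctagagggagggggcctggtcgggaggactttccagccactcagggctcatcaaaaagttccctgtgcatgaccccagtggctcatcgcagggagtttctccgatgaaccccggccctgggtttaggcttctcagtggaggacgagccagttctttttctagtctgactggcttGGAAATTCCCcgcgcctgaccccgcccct
On both strands, the consensus was found in 8 of 18 promoters (44.4%) that RefSeq gives for 13 genes of the list. Of all 32851 promoters of that length, 3.90% held it. A match describes the letters and is not evidence of binding. The shares describe a list named for NF-kB, use no KO or het counts and are not a result of the contrast.

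Nfkbia (ENSMUSG00000021025), the inhibitor IkB-alpha, stood at 287 CPM in KO and 899 CPM in het, a ratio of 0.319. It had a UMI in 27 KO and 24 het cells, with medians of 2 UMIs in KO and 7.5 UMIs in het among them. Traf1 (ENSMUSG00000026875), an adaptor of tumour necrosis factor receptors, stood at 76.7 CPM in KO and 453 CPM in het (ratio 0.169, interval 0.0986 to 0.275). The numbers of cells with a Traf1 UMI were close, 13 in KO and 16 in het, but its most abundant KO cell held 3 UMIs and its most abundant het cell 19. Nfkb1, the p105/p50 subunit, stood at 117 CPM in KO and 389 CPM in het. Rel, the c-Rel subunit, stood at 121 CPM in KO and 223 CPM in het. Nfkbiz, an atypical inhibitor, stood at 52.5 CPM in KO and 306 CPM in het. Nfkbid, another of that kind, had 2 UMIs in KO and 31 in het. Tnfaip3, the deubiquitinase A20 that ends the signal, stood at 133 CPM in KO and 284 CPM in het. The exceptions were Rela, the p65 subunit, at 36.3 CPM in KO and 54.0 CPM in het, and Relb, at 36.3 CPM in KO and 39.6 CPM in het.

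Levels are also given for cells with and without Foxp3, and the part of the Foxp3 cells in the NF-kB values was not tested. Nfkbia stood at 238 CPM in the 2 KO Foxp3 cells and 1384 CPM in the 11 het Foxp3 cells. In the cells without Foxp3 it stood at 290 CPM in KO and 603 CPM in het. Traf1 stood at 178 CPM in KO and 1014 CPM in het within Foxp3 cells, and at 69.3 CPM in KO and 110 CPM in het outside them. Without the Foxp3 cells the median of the list was -0.69. Gadd45b, a stress-response gene that NF-kB can induce, stood at 48.5 CPM in KO and 457 CPM in het, with a UMI in 7 KO and 21 het cells. Its ratio was 0.106, with an interval of 0.0534 to 0.192.

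**Figure D4:**
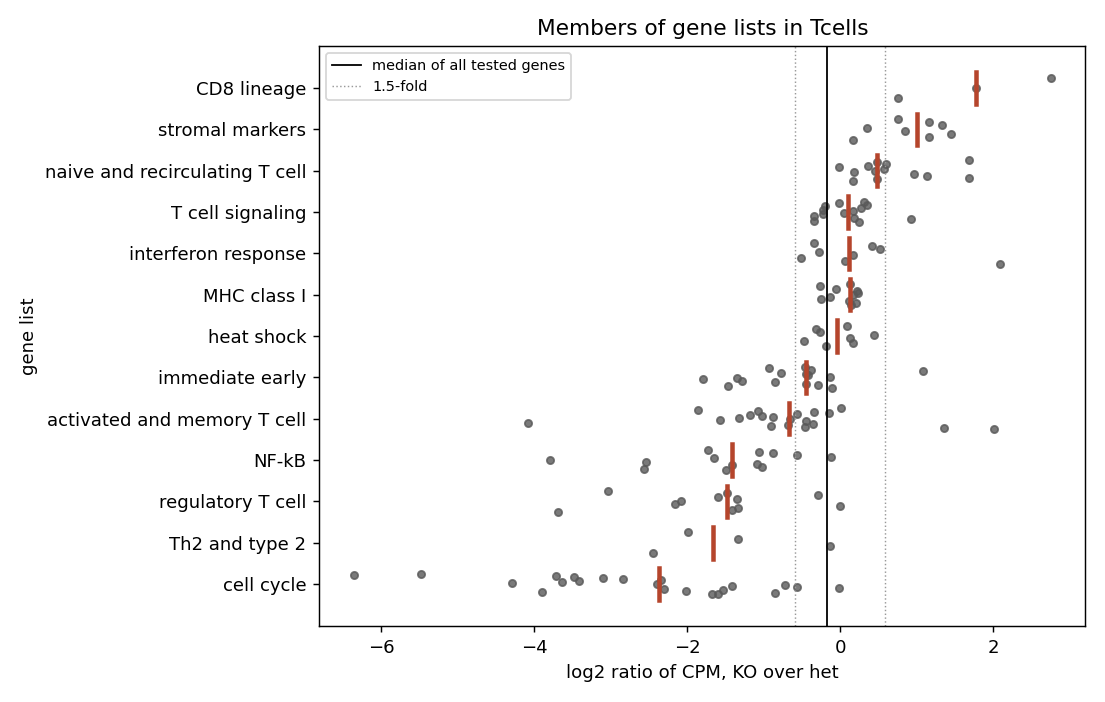
Each point is a measured gene of a fixed list, placed by its log2 KO/het ratio in Tcells, and the red bar is the list's median. The black line marks the median of all tested genes (-0.17) and the dotted lines 1.5-fold. Points of the NF-kB, regulatory T cell and cell cycle lists lie left of or at the black line with few exceptions, and CD8 and stromal points lie right of it.

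Immediate early genes, which answer a stimulus or the dissociation of tissue within minutes, leaned lower in KO Tcells. Of 16 measured genes 7 were at least 1.5-fold lower and 1 higher, with a median of -0.45. Over all tested genes the shares were 23.6% lower and 8.29% higher. Nr4a1, a gene of recent antigen receptor signaling, stood at 113 CPM in KO and 392 CPM in het (ratio 0.288), with a UMI in 15 KO and 22 het cells. Junb stood at 1179 CPM in KO and 2015 CPM in het. Jun was the exception, at 68.6 CPM in KO and 32.4 CPM in het. The heat shock list, whose genes also answer dissociation, had 0 of 8 genes past 1.5-fold and a median of -0.04. Hspa8, a constitutive chaperone, stood at 1575 CPM in KO and 1892 CPM in het.

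Cell cycle genes were lower in KO Tcells, and their UMIs lay in few cells. Of 25 fixed genes 22 were measured. Of these 20 were at least 1.5-fold lower (23.6% over all genes) and 0 higher, with a median log2 ratio of -2.37. The promoter of Ube2c, the mitotic ubiquitin-conjugating enzyme UBCH10, is shown as a member with many CCAAT boxes, a motif known from mitotic gene promoters. The 250 bases before its RefSeq start (GRCm38.p6, chr2:164769679-164769928, plus strand) hold 6 matches to CCAAT, counted on both strands, and 1 to TTTGAA. Matches are in capitals, a CCAAT on the other strand reading ATTGG and a TTTGAA reading TTCAAA, and the 2 motifs share 0 bases.
Ube2c: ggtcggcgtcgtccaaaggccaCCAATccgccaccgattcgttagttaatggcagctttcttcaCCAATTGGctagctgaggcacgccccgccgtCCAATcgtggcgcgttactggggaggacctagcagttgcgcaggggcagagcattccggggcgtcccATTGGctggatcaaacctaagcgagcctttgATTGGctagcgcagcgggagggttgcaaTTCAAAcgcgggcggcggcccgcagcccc
CCAAT was found in 17 of 21 promoters (81.0%) of 21 list genes, against 33.8% of all promoters of that length. TTTGAA was found in 8 of 21 (38.1%), against 16.0% of all. These shares describe the promoters of a list named for its function. They use no KO or het counts and are not a result of the contrast.

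Mki67 (ENSMUSG00000031004), the antigen Ki-67 of dividing cells, had 2 UMIs in 2 KO cells and 100 UMIs in 8 het cells. The KO cells held 1 UMI each. Of the het cells 4 held 39, 26, 18 and 10 UMIs and the other 4 held 1 to 3. Top2a, the topoisomerase of dividing cells, had 1 UMI in KO and 92 UMIs in het. Hist1h2ap, a replication-dependent histone with near-identical copies, had 0 UMIs in KO and 84 in het. With its KO sum set to the floor of 3 counts, the KO/het ratio of Hist1h2ap was 0.0401. The upper bound of its interval was 0.0504. Ube2c stood at 28.3 CPM in KO and 371 CPM in het, with a UMI in 4 KO and 9 het cells. Birc5, a mitotic inhibitor of apoptosis, stood at 24.2 CPM in KO and 270 CPM in het. Cenpa, the centromeric histone, had a UMI in 5 KO and 16 het cells, at 24.2 CPM in KO and 302 CPM in het. Stmn1, a microtubule regulator, stood at 162 CPM in KO and 795 CPM in het. H2afx, a histone of DNA damage marks, stood at 16.2 CPM in KO and 241 CPM in het, and the linker histone Hist1h1b at 20.2 CPM in KO and 273 CPM in het.

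Cells with an Mki67 or Top2a UMI numbered 2 of 32 in KO (6.25%, interval 0.766 to 20.8%) and 9 of 30 in het (30.0%, interval 14.7 to 49.4%). Of these, 1 KO and 4 het cells also held Foxp3. The deposited phase label put 24 KO and 17 het Tcells in G1, 5 KO and 7 het cells in S, and 3 KO and 6 het cells in G2M. Without the cells that held Mki67 or Top2a, both genes of the list itself, the list median was -0.12. A smaller difference is built into that choice of cells. In that setting Stmn1 (0.53) and Birc5 (0.42) stood on the other side of 0 on the log2 scale. Without the 10% of annotated cells with the highest doublet score, which held 3 KO and 4 het Tcells, the list median was -0.79. In the other names the median of the list was -0.39 in gdTcells, 0.40 in NK cells and -1.63 in ILC2s.

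**Figure D5:**
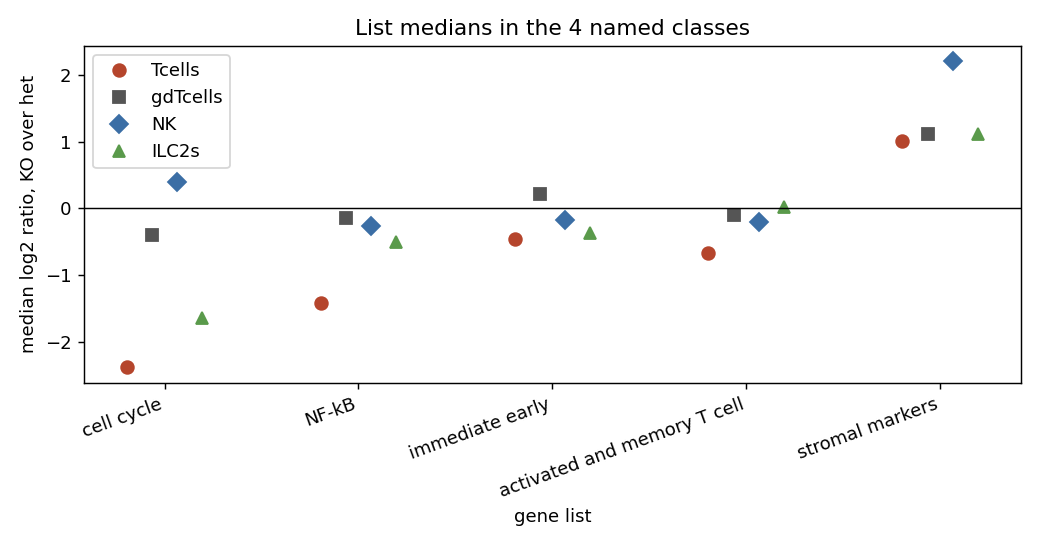
Points give the median log2 KO/het ratio of 5 fixed lists in the 4 named classes, with no error bars since there is 1 library per genotype. The Tcells lie lowest for each of the 5 lists, among them the cell cycle (-2.37) and NF-kB (-1.42) lists. All 4 classes lie above 0 for the stromal markers.

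Genes of activated and memory T cells leaned lower in KO Tcells. Of 20 measured genes 11 were at least 1.5-fold lower in KO Tcells and 2 higher, with a median of -0.67. Over all tested genes the shares were 23.6% lower and 8.29% higher. Cd69, a retention receptor of activated cells, stood at 68.6 CPM in KO and 248 CPM in het (ratio 0.276, interval 0.152 to 0.475). Pdcd1, the inhibitory receptor PD-1, had 2 UMIs in 1 KO cell and 38 UMIs in 8 het cells. S100a6 stood at 472 CPM in KO and 1069 CPM in het, and Ccr2, a chemokine receptor, at 36.3 CPM in KO and 108 CPM in het. Cd44 stood at 68.6 CPM in KO and 68.4 CPM in het.

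The 2 genes of that list that were higher were Ccl5 and Ly6c2. Ccl5, a chemokine of memory CD8 and NK cells, stood at 1369 CPM in KO and 338 CPM in het (ratio 4.05, interval 3.21 to 5.14). Its UMIs came from 9 KO and 11 het cells, so fewer KO cells held more each, with medians of 25 UMIs in KO and 3 UMIs in het. Of the Ccl5 cells, 6 KO and 0 het cells also held a CD8 chain. Ly6c2, a surface protein of memory CD8 cells, stood at 396 CPM in KO and 155 CPM in het, in 8 KO and 5 het cells. Its log2 ratio was 0.34 in cells with an Xist UMI and 3.19 in cells without one. Ctla2a (ENSMUSG00000044258), a cysteine protease inhibitor, stood at 384 CPM in KO and 68.4 CPM in het (ratio 5.61, interval 3.40 to 9.73). Its UMIs lay in 11 KO and 6 het cells, and 82 of 95 KO UMIs lay in cells with a CD8 chain. Ctla2b, a near-identical copy, had 12 UMIs in KO and 5 in het, so the split between the copies is uncertain.

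Nkg7, a granule protein, stood at 480 CPM in KO and 201 CPM in het (ratio 2.38, interval 1.72 to 3.34). Klrd1, the NK receptor chain CD94, stood at 218 CPM in KO and 82.7 CPM in het (ratio 2.63, interval 1.59 to 4.50). Without the cells that held Cd8a or Cd8b1, Ly6c2, Nkg7 and Klrd1 lay below 0 on the log2 scale, at -0.71, -0.34 and -0.63, and Ctla2a (0.24) and Ccl5 (0.38) lay near 0. That setting was added after the data were seen, and the part of the CD8 cells in these values was not tested. Gzmb, the protease granzyme B, went the other way, with 7 UMIs in 2 KO cells and 58 UMIs in 5 het cells. Of the het UMIs of Gzmb, 30 lay in 1 cell. Xcl1, a chemokine of activated lymphocytes, had 4 UMIs in 2 KO cells and 22 in 2 het cells, and 21 of the het UMIs lay in 1 cell. Ifng had 1 UMI in KO and 16 UMIs in 3 het cells, and was under the minimum of 20.

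Of 12 measured cytokine receptor genes, Il1rl1 among them, 1 was at least 1.5-fold higher in KO Tcells and 4 lower. Over all tested genes the shares were 8.29% higher and 23.6% lower. The list's median was -0.19 against -0.17 for all genes. Il2rg, the common gamma chain, stood at 166 CPM in KO and 266 CPM in het (ratio 0.622, interval 0.414 to 0.923). Il2rb stood at 84.8 CPM in KO and 133 CPM in het, and Ifngr2 at 88.8 CPM in KO and 43.2 CPM in het. For Il2rb and Ifngr2 the interval includes 1. Interferon-response genes had 1 of 8 past 1.5-fold and a median of 0.12. That gene, Zbp1, a sensor of nucleic acids, stood at 76.7 CPM in KO and 17.99 CPM in het, in 13 KO and 5 het cells (ratio 4.26). None of 11 MHC class I genes was past 1.5-fold, with a median of 0.13. For glycolysis 4 of 9 genes were at least 1.5-fold lower (23.6% over all genes), Aldoa, Tpi1, Gapdh and Eno1, with a median of -0.47. Gapdh stood at 747 CPM in KO and 1216 CPM in het.

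Stromal transcripts were higher in KO Tcells. Of 8 measured stromal genes 6 were at least 1.5-fold higher (8.29% over all genes) and 0 lower, with a median of 1.01. Their list summed to 1530 CPM in KO and 806 CPM in het. Col1a1, a collagen chain of fibroblasts and osteoblasts, had a UMI in 32 of 32 KO and 25 of 30 het Tcells. Col1a2 stood at 307 CPM in KO and 137 CPM in het, with at most 5 UMIs per KO cell and 4 per het cell. The median of this list was also above 0 in the other names, at 1.12 in gdTcells, 2.20 in NK cells and 1.12 in ILC2s. Myeloid markers summed to 279 CPM in KO and 86.3 CPM in het, and Apoe, a lipid carrier, gave 57 of their 69 UMIs in KO and 17 of 24 in het. Of Apoe, 33 of the KO UMIs lay in 1 cell. Its ratio was 3.76 with that cell and 1.94 without the top cell of each library. Mt1, a metallothionein, had 5 UMIs in KO and 69 in het, 59 of them in 1 cell, and its ratio was 0.0813 with all cells and 0.318 without the top cell of each library. Hemoglobin genes summed to 291 CPM in KO and 227 CPM in het. The part of transcripts from other cells in the results on T cell genes was not tested.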

How the data were processed

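Cells of the dura were profiled by 10x droplet sequencing, 1 library per genotype. The authors deposited UMI counts per gene and barcode, with Cell Ranger 3.0.2 and the mm10 build named in the submitters' processing notes, and tables with UMI counts and names of 477 cells. Their metadata give the percent of mitochondrial UMIs per cell, as deposited by the authors, and a phase label. The KO library holds 12046 barcodes and 122426614 UMIs, and the het library 10936 barcodes and 113220628 UMIs. Of the 67461 KO and 73156 het values above 0 in Tcells, 1 KO and 4 het values differed from the matrices.

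Genotypes were taken from the labels. UMIs were summed over the Tcells of each library and divided by all their UMIs. A gene with at least 20 UMIs over both libraries was tested for size, and called at a ratio of at least 1.5 in either direction. A KO or het sum of 0 was set to 3 counts. Ratios have conditional binomial intervals and shares Clopper-Pearson intervals. Shares at 4000 UMIs are the expected values over all draws from each cell. No test across replicates was possible, and the sum code was tested on simulated data. Python 3.11.15 with numpy 2.4.6, pandas 2.3.3, scipy 1.17.1, scanpy 1.11.5 and matplotlib 3.10.9 were used. Gene positions are from GENCODE on GRCm38, and promoters from RefSeq (GRCm38.p6).

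Named genes were the first 12 in each direction, ranked by the bound of the interval nearest to 1, among genes with at least 50 UMIs and a UMI in at least 20% of the Tcells of 1 library, and the first 15 over the other names. These rankings skip genes of mitochondria, ribosomal proteins, hemoglobin, immunoglobulins and the Y chromosome, predicted genes and Xist. Members of 30 lists could also be named. Ctla2b, as the copy of Ctla2a, was named after its values were seen. The members and the lists were chosen with earlier results of these data known. Doublets were scored with Scrublet in scanpy, which called almost none and so did not work as a caller here. Its score served only to rank cells.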

Additional observations from a re-analysis of the deposited data

Results flagged for a closer look

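The median log2 KO/het ratio of the cell cycle list was -2.37 in Tcells and 0.40 in NK cells, on opposite sides of 0. It was flagged as a difference between cell classes under the same contrast, and the difference was not tested, since there is 1 library per genotype.

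Barcodes with UMIs of at least 2 of Cd3e, Cd3d and Cd3g were also found outside the named lymphocytes. They were flagged as a signal in cells that the comparisons above do not use. Among other annotated cells there were 14 in KO and 14 in het, with median depths of 23202 UMIs in KO and 22529 UMIs in het. Among barcodes that are not annotated there were 15 in KO and 13 in het, with median depths of 9337 UMIs in KO and 8562 UMIs in het. Of the annotated ones, 4 KO and 0 het barcodes also held Cd79a, a B cell gene.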

How the results depend on the processing

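No paired analysis was possible because there is 1 library per genotype. Without the Foxp3 cells or the cells with Mki67, Top2a, Cd8a or Cd8b1, without the cell lacking CD3 UMIs, and with scaling outside ribosomal protein genes are alternatives added after seeing the data. The counts of genes past 1.5-fold, 270 higher and 770 lower, moved with the UMI minimum, to 632 and 1483 at 10 UMIs and to 71 and 278 at 50 UMIs. The higher count was 446 with the median ratio set to 0 and 440 with scaling outside ribosomal protein genes. Cells with an Xist UMI alone gave 128 higher and 433 lower genes, and those without one 478 lower genes. Without cells holding Mki67 or Top2a 387 genes were lower. The 64 leading genes became 40 with 20 CPM added and 33 at a minimum of 50 UMIs. The MHC class I median was 0.30 with the median ratio set to 0 and 0.29 outside ribosomal protein genes. The regulatory list median was -2.78 without the 10% of highest Scrublet score, -0.40 and -2.90 in cells with and without an Xist UMI, and -0.27 without Foxp3 cells. The cell cycle median was -0.79 without those 10% and -0.12 without Mki67 or Top2a cells, and the naive median was 1.05 in cells without an Xist UMI. The NF-kB median ran from -2.00 to -0.69 over all alternatives. Among the 24 named genes, the sign turned for Birc5 (0.42) and Stmn1 (0.53) without Mki67 or Top2a cells, and for Ly6c2 (-0.71), Nkg7 (-0.34) and Klrd1 (-0.63) without CD8 cells, and for no other under these alternatives. Of the values of named genes under the alternatives, 283 stayed within the interval of the original value, 67 left it with the sign kept and 5 turned. The alternatives without Foxp3 cells and without Mki67 or Top2a cells leave out cells by genes of the regulatory and cell cycle lists themselves. The one without CD8 cells leaves them out by genes of the CD8 lineage list. The cause of the other moves was not tested. Leaving out cells with a Trdc UMI was not run, since that gene was not analysed here.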
